A study of Mus musculus with 6 samples.

Results

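The Ifi200 cluster is a row of interferon-inducible p200 (PYHIN) genes on the distal part of mouse chromosome 1. Its 7 members examined here were Ifi202b, Ifi203, Ifi204, Ifi205, Aim2, Mnda and Pyhin1, out of 19939 genes measured. They were chosen by family and by position on the chromosome arm that also carries F11r, the gene of JAM-A, and from expression values already known in these same tumors. All probe sets paired with the 7 symbols were taken, which gave 6 of 35557 probe sets. Of these, 5 were paired with 1 symbol each, and 1 was shared by Ifi204 and Mnda. In the RefSeq gene table Mnda is now named Ifi211 and Pyhin1 is named Ifi209, and these current names are used below.

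The data are array profiles of 6 mammary tumors from MMTV-PyVmT mice, in which the MMTV promoter drives polyoma middle T, a viral oncogene, in mammary epithelium. The JAM-A-/- group held 3 tumors from mice lacking JAM-A, a junctional adhesion molecule of epithelium, endothelium and leukocytes (tumors 5333, 5346 and 5347). The JAM-A+/+ group held 3 tumors from MMTV-PyVmT mice with intact JAM-A (tumors 5369, 5370 and 5393). All 6 were resected at an early stage, and RNA of whole tumors, stroma and blood cells included, was hybridized to Affymetrix Mouse Gene 1.0 ST arrays with 1 array per tumor. JAM-A+/+ littermates served as controls according to the methods, but neither age nor strain is given for the 6 mice in the sources used here. The JAM-A-/- genotype and the stretch of chromosome 1 inherited with it cannot be told apart in this design. No source says whether each tumor came from its own mouse, so errors and p-values measure only the spread between these tumors.

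Proteins of the p200 family carry a HIN domain that binds DNA, and most carry a pyrin domain through which they contact other proteins. Their genes are induced by type I interferon, mainly in leukocytes, and several of the proteins sense DNA in the cytosol or the nucleus. AIM2 is the best known: on binding double-stranded DNA it recruits the adaptor ASC and caspase-1 into an inflammasome that matures interleukin-1β and interleukin-18. Many interferon-induced genes carry a short promoter sequence called the interferon-stimulated response element. Levels of Ifi202b are known to differ among inbred mouse strains.

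The reference promoters of the family are shown first, because most genes of the family share a short sequence there that the choice of members did not use. The stretches are from RefSeq, build GRCm38.p6, in windows of 300 bases running from 250 bases before to 50 bases after each annotated start, written 5′ to 3′ along the gene strand. Capitals mark the core of the interferon-stimulated response element, searched as GAAANNGAAA on both strands (TTTCNNTTTC on the other strand). This core stood in 1131 of 32851 mouse promoter windows (3.44%). Of the 11 p200 genes with a window, 8 held it, made up of 3 of the 6 members with a window and 5 of the 5 other p200 genes. These counts are of genes and the share above is of windows, and Ifi203 had 2 windows. Since p200 genes resemble each other in sequence, their matches are not independent of each other.
Ifi203: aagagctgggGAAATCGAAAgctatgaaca
Ifi211: caaagccaggGAAATTGAAAgctatgaacg
Ifi205: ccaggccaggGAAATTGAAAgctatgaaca
Ifi207: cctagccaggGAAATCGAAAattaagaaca
Ifi208: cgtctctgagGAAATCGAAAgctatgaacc
Ifi214: agtctctgagGAAATCGAAAgcgatgcact

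These stretches lie at chr1:173942508-173942537 for Ifi203, chr1:173913064-173913093 for Ifi211, chr1:174031870-174031899 for Ifi205, chr1:173741831-173741860 for Ifi207 and chr1:173536017-173536046 for Ifi214, all on the minus strand, and at chr1:173673597-173673626 on the plus strand for Ifi208. The core began 35 bases before the annotated start in Ifi203 (in its second window), 37 in Ifi211, 41 in Ifi207, 58 in Ifi208, 79 in Ifi214 and 134 in Ifi205, which held a further match on the other strand 23 bases after its start. Spelled GAAATCGAAA, it stood in 6 p200 genes and in 16 of all 32851 windows (0.0487%), and as GAAATTGAAA in 2 p200 genes and in 38 windows (0.116%). The flanking bases were alike as well, with gctatgaac after the core in Ifi203, Ifi205, Ifi208 and Ifi211. The same bases followed it in Ifi206 and Ifi213, whose stretches are not printed.

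Of the members with a window, Ifi209, Ifi202b and Aim2 were without an exact match. Ifi209 carried the corresponding stretch with 1 difference from the core, G1T counted from the first base of GAAANNGAAA, at chr1:173630770-173630799 on the plus strand and 79 bases before the start. Its window held another match with 1 difference, G7C, 177 bases before the start, which is not printed. Among all windows, 6601 (20.1%) held the core on the gene strand with at most 1 mismatch. Ifi202b held the other interferon-related core, the gamma-activated sequence TTCNNNGAA, 148 bases before its start at chr1:173982974-173983002 on the minus strand. That core, a palindrome read alike on both strands, stood in 2726 windows (8.3%). Capitals mark the 2 cores, that of Ifi209 with its difference.
Ifi209: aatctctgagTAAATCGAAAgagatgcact
Ifi202b: ctgtcatgatTTCTCAGAAtaactactga

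The Aim2 window held neither core. A match in a reference promoter is a description of letters, and binding was not measured in these tumors.

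F11r was examined first, since it checks the labels, although the deleted exons are not named in the sources used here. Its log2 level was 5.91, 5.55 and 6.53 in JAM-A-/- tumors 5333, 5346 and 5347, against 10.10, 10.23 and 10.47 in JAM-A+/+ tumors 5369, 5370 and 5393. Both genotypes were far apart, at a mean of 6.0 ± 0.50 for JAM-A-/- and 10.27 ± 0.19 for JAM-A+/+ (SD, n = 3 each). The log2 difference, always given as JAM-A-/- minus JAM-A+/+, was -4.27 (SE 0.24), with a limma p adjusted over all probe sets of 0.00667. F11r was the only 1 of 35557 probe sets (0.00281%) that passed this adjustment at 0.05, while 3871 had an unadjusted p under 0.05. Its adjusted p lay between 0.0507 and 0.0839 when tumor 5333, 5369, 5370 or 5393 was left out. Members chosen from values of this same comparison were not tested.

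Of the 6 member probe sets, 3 had higher mean levels in JAM-A-/- tumors, each with a fold near 1.9 or 2.0, and the other 3 differed by at most 0.32 on the log2 scale in either direction. The 3 high probe sets belong to Ifi203, to Ifi204 and Ifi211 together, and to Ifi202b, which are neighbours in the order of measured genes. Groups did not overlap in 2 of the 6 probe sets, both higher in JAM-A-/- tumors. Over all 19939 genes, 12.4% were without overlap and higher in JAM-A-/- tumors and 2.55% without overlap and lower. Since the members were chosen with this comparison known, their count is a description only.

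The probe set shared by Ifi204 and Ifi211 cannot be assigned to either gene. Ifi204 encodes p204, a nuclear and cytosolic DNA sensor with a pair of HIN domains and a relative of human IFI16. Ifi211 was named Mnda after the human myeloid cell nuclear differentiation antigen. The log2 level of this probe set was 6.53, 7.24 and 6.80 in JAM-A-/- tumors 5333, 5346 and 5347, against 5.62, 6.14 and 5.73 in JAM-A+/+ tumors 5369, 5370 and 5393. Every JAM-A-/- tumor stood above every JAM-A+/+ tumor, and 0.39 separated the nearest pair, 5333 and 5370. The mean was 6.86 ± 0.36 for JAM-A-/- and 5.83 ± 0.27 for JAM-A+/+ (SD, n = 3 each), a log2 difference of 1.03 (SE 0.21) or a fold of 2.04. With each tumor left out in turn the difference ranged between 0.83 and 1.19.

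Ifi203, which encodes a p200 protein with a pyrin and a HIN domain, showed the other difference without overlap. Its log2 level was 6.53, 7.12 and 7.0 for JAM-A-/-, with tumors in the same order as above, against 5.75, 6.06 and 6.09 for JAM-A+/+. The JAM-A-/- tumor with the lowest value, 5333, was 0.44 above the highest JAM-A+/+ tumor, 5393. Means were 6.88 ± 0.31 in JAM-A-/- tumors and 5.97 ± 0.19 in JAM-A+/+ tumors (SD, n = 3 each), which gave a difference of 0.92 (SE 0.18) and a fold of 1.89. Leaving out single tumors moved it between 0.80 and 1.09.

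Ifi202b encodes p202, which lacks a pyrin domain and restrains AIM2 by binding DNA and AIM2 without recruiting ASC. It had log2 levels of 5.74, 6.80 and 6.79 in JAM-A-/- tumors 5333, 5346 and 5347, against 5.33, 5.92 and 5.15 in JAM-A+/+ tumors 5369, 5370 and 5393. Tumors 5346 and 5347 were above all JAM-A+/+ tumors, but 5333 was below 5370, so the groups overlapped. The mean was 6.44 ± 0.61 in JAM-A-/- tumors and 5.47 ± 0.40 in JAM-A+/+ tumors (SD, n = 3 each), a difference of 0.98 (SE 0.32) and a fold of 1.97. It was 1.33 without tumor 5333 and 0.80 at the lowest, without 5346 or without 5347.

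Aim2, the inflammasome sensor, was at almost the same level in all 6 tumors. Its mean level lay at percentile 33.8 of all probe sets, and whether the gene was expressed was not tested. The log2 values were 5.11, 5.32 and 5.39 for JAM-A-/- and 5.22, 5.42 and 5.33 for JAM-A+/+, a range of 0.31 in all. The groups overlapped throughout, with means of 5.27 ± 0.15 for JAM-A-/- and 5.32 ± 0.10 for JAM-A+/+ (SD, n = 3 each) and a difference of -0.05 (SE 0.13). Its sign was not stable, being 0.03 without tumor 5333, 0.03 after quantile normalization between arrays and 0.01 after centring on array medians.

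For Ifi205, whose protein in mouse macrophages is tied to transcription of the ASC gene Pycard, the difference depended on single tumors. Its log2 level was 6.33, 7.05 and 6.85 in JAM-A-/- tumors 5333, 5346 and 5347, against 6.37, 8.15 and 6.66 in JAM-A+/+ tumors 5369, 5370 and 5393. The value of 5370 stood above all others, and the groups were mixed among the remaining 5 tumors. The means of 6.74 ± 0.37 for JAM-A-/- and 7.06 ± 0.96 for JAM-A+/+ (SD, n = 3 each) differed by -0.32 (SE 0.44), by 0.23 without tumor 5370, -0.11 without 5333, -0.66 without 5369 and -0.52 without 5393.

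Ifi209, a relative of human IFIX, gave a dim signal. Its log2 values were 3.48, 3.41 and 3.21 for JAM-A-/-, against 2.92, 2.93 and 3.30 for JAM-A+/+, all below the lower quartile of each array (4.68 to 4.84). Tumor 5393 was above 5347, so the groups overlapped. The difference of 0.32 (SE 0.15), between means of 3.37 ± 0.14 for JAM-A-/- and 3.05 ± 0.22 for JAM-A+/+ (SD, n = 3 each), corresponds to a fold of 1.25.

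**Figure D1:**
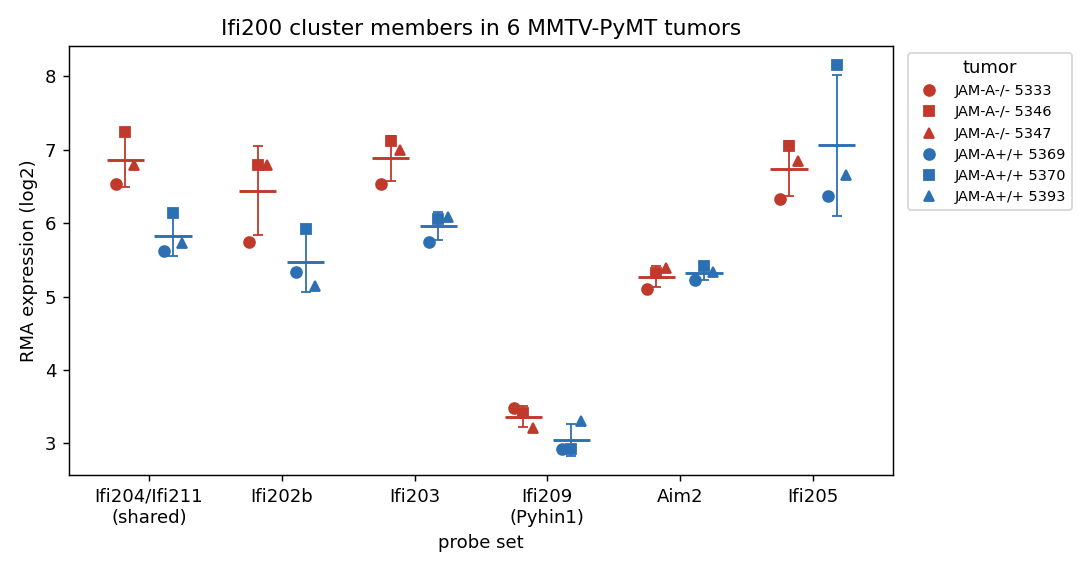
Log2 RMA expression (vertical axis) of the 6 member probe sets (horizontal axis) in 3 JAM-A-/- tumors (red) and 3 JAM-A+/+ tumors (blue). Each symbol is 1 tumor, horizontal lines are group means and bars are SD (n = 3). The groups are apart for Ifi204/Ifi211 and Ifi203, overlap at tumor 5333 for Ifi202b, and lie on each other for Aim2, while tumor 5370 stands at 8.15 for Ifi205.

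The median log2 difference over the 5 probe sets with 1 symbol was 0.32, the value of the dim Ifi209, and over all 6 member probe sets it was 0.62. Over all 19939 genes the median was 0.09, and 71.8% of genes had a difference above 0. Among the member probe sets, 4 were above 0 and 2 below.

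The members also differed in how they varied among tumors of 1 genotype. In each of the 3 high probe sets, tumor 5333 was the lowest of the JAM-A-/- group. Expressed as the deviation from the mean of the 6 tumors, 5333 stood at 0.19 for Ifi204/Ifi211, 0.11 for Ifi203 and -0.21 for Ifi202b. Tumor 5346 stood at 0.90, 0.70 and 0.85 for the same probe sets, and 5347 at 0.46, 0.58 and 0.84. In the JAM-A+/+ group the highest tumor was 5370 for Ifi204/Ifi211 (-0.20) and Ifi202b (-0.03) but 5393 for Ifi203 (-0.33). Ifi205 followed another order, with 5370 at 1.25 and 5333 and 5369 lowest at -0.57 and -0.53.

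Likeness between tumor profiles was measured as the root mean square difference of centred log2 values over the 6 tumors. Between the 3 high probe sets it was 0.17 for Ifi204/Ifi211 with Ifi203, 0.25 for Ifi204/Ifi211 with Ifi202b and 0.30 for Ifi202b with Ifi203. Ifi205 differed from the other members by 0.54 to 0.79. All pairs share the same 6 arrays, so these values are a description.

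The genes with the profile closest to a member are given with their chromosomes. Nearest to Ifi204/Ifi211 were Cspg5, a neural proteoglycan gene on chromosome 9 (0.09), Pglyrp1, which encodes a peptidoglycan recognition protein, on chromosome 7 (0.13), and Des, the muscle intermediate filament gene desmin, on chromosome 1 (0.15). Nearest to Ifi203 were the imprinted gene Mest on chromosome 6 (0.09), Cspg5 (0.12) and Sparcl1, a matricellular gene, on chromosome 5 (0.12). Mest had log2 levels of 6.67, 7.42 and 7.22 for JAM-A-/- and 6.12, 6.18 and 6.22 for JAM-A+/+, the same order of tumors within JAM-A-/- as Ifi203.

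For Ifi202b the 3 nearest were genes of skeletal muscle fibres, namely Tnnt3 (troponin T, chromosome 7, 0.21), Pygm (muscle glycogen phosphorylase, chromosome 19, 0.24) and Myl1 (myosin light chain, chromosome 1, 0.24). Tnnt3 stood at 7.43, 8.47 and 8.24 in JAM-A-/- tumors 5333, 5346 and 5347, against 7.29, 7.89 and 7.19 in JAM-A+/+ tumors 5369, 5370 and 5393. A list of 15 skeletal muscle genes, added after these values had been seen, was then summarised. All 15 had differences above 0, with a median of 0.59, and 3 met the criteria used below with higher levels. Over all genes 71.8% had a difference above 0, and 4.73% met these criteria with higher levels. Since the list was added with these profiles seen, its likeness to Ifi202b is a description only. Its mean deviation was largest in tumors 5393 (-0.80) and 5346 (0.66). The mean log2 level of the list was 6.89 to 7.62 in JAM-A-/- tumors and 6.16 to 7.14 in JAM-A+/+ tumors, highest in 5346 and 5347 like Ifi202b. The part of muscle tissue in the Ifi202b values was not tested. Nearest to Ifi205 were 2210407C18Rik (chromosome 11, 0.25), the C-type lectin gene Cd209f (chromosome 8, 0.26) and the Wnt antagonist gene Sfrp4 (chromosome 13, 0.28), each highest in tumor 5370, with log2 levels there of 7.14, 7.85 and 7.19.

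Of 7 other p200 genes listed, 5 were measured by further probe sets, namely Ifi206, Ifi207, Ifi208, Ifi213 and Ifi214. The criteria for this and the following lists were a fold of at least 1.3 and an unadjusted limma p under 0.05, which 4.73% of the 19939 genes met with higher and 0.592% with lower levels in JAM-A-/- tumors (944 and 118 genes). None of the 5 met them, and in all 5 the groups overlapped. Ifi207 was at 6.14, 6.40 and 6.39 for JAM-A-/- and 6.0, 6.37 and 6.14 for JAM-A+/+, a difference of 0.14 (SE 0.14, adjusted p = 0.734). In the order of measured genes Ifi207 is next to the shared Ifi204/Ifi211 probe set. The other 4 were dim, with mean levels at percentiles 7.28 to 12.4 of all probe sets, and their differences were 0.14 for Ifi213 (SE 0.20, adjusted p = 0.824), 0.11 for Ifi208 (SE 0.14, 0.779), 0.03 for Ifi214 (SE 0.25, 0.977) and -0.23 for Ifi206 (SE 0.19, 0.668). The median of the 5 was 0.11. Without tumor 5393, 1 of the 5 met the criteria, Ifi206, at -0.43 (SE 0.15, adjusted p = 0.381).

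Along chromosome 1 the 11 probe sets of the cluster were arranged with Aim2 nearest to F11r, 42 measured genes away, followed by Ifi206, Ifi214, Ifi213, Ifi209, Ifi208, Ifi207, Ifi204/Ifi211, Ifi203, Ifi202b and Ifi205, the last at 52. The order is that of the RefSeq table of assembly GRCm38.p6, without the genes that were not measured. The shared probe set was placed at whichever of Ifi204 and Ifi211 comes first. The 3 probe sets with differences of 0.92 to 1.03 were consecutive at 49 to 51, with Ifi207 on one side (0.14) and Ifi205 on the other (-0.32). Since p200 genes resemble each other in sequence, a probe set of one can also bind RNA of another, and this was not tested.

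The 41 measured genes between F11r and Aim2 were examined as the flanking stretch. Of these, 3 met the criteria with higher levels in JAM-A-/- tumors and 0 with lower levels, 29 (70.7%) had a difference above 0, and the median was 0.08 against 0.09 for all genes. Their differences ran between -0.29 and 0.61, below those of Ifi204/Ifi211, Ifi202b and Ifi203. Pex19, needed for import of peroxisomal membrane proteins, was at 9.13, 9.48 and 9.69 for JAM-A-/- and 8.73, 8.78 and 8.96 for JAM-A+/+, a difference of 0.61 (SE 0.16, limma adjusted p = 0.323). Igsf8, a tetraspanin partner, differed by 0.60 (SE 0.18, adjusted p = 0.343) and the olfactory receptor gene Olfr1404, dim at a mean of 3.11 in JAM-A-/- and 2.68 in JAM-A+/+ tumors, by 0.43 (SE 0.15, adjusted p = 0.396). Groups did not overlap for any of these 3. The count of 3 was 8 without tumor 5333.

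The 41 genes on the far side of F11r held 6 that met the criteria with higher levels and 0 with lower levels, with a median of 0.21. Over all genes 4.73% met them with higher levels. Nearest to F11r among the 6 were its neighbour Usf1 (0.47, SE 0.15, without overlap) and Nectin4 (0.56, SE 0.21, with overlap). The 41 genes beyond the cluster held 3 with higher and 1 with lower levels, with a median of 0.12.

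**Figure D2:**
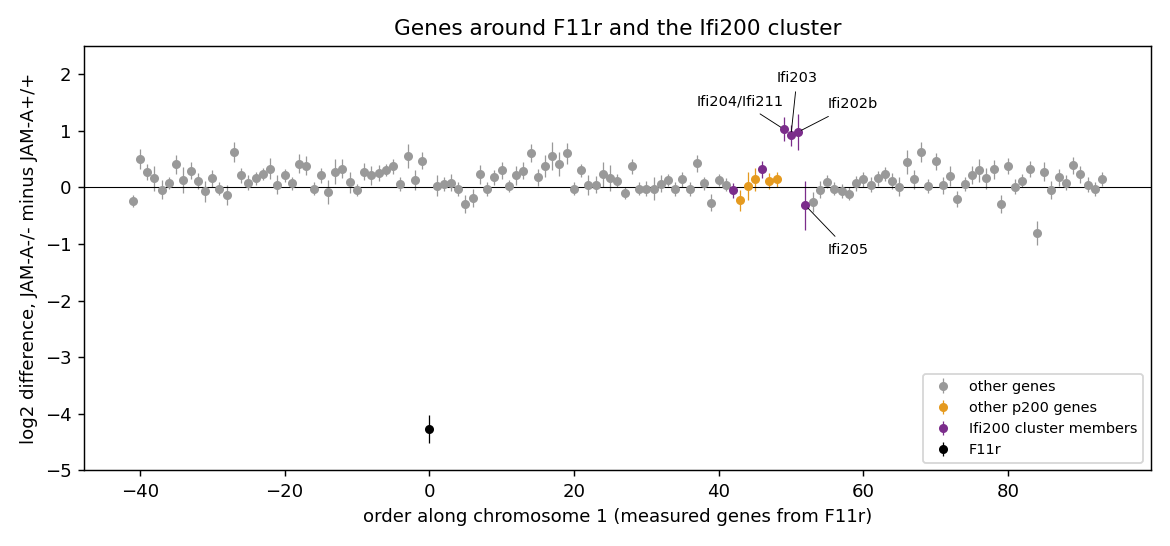
Log2 difference, JAM-A-/- minus JAM-A+/+ (vertical axis, with SE bars from limma), of genes by their order along chromosome 1 counted in measured genes from F11r (horizontal axis). F11r lies at -4.27, Ifi204/Ifi211, Ifi203 and Ifi202b stand at 1.03, 0.92 and 0.98 as consecutive points, and the 41 genes between lie within -0.29 and 0.61.

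Since the family responds to interferon, interferon-induced genes encoded elsewhere were followed in the same tumors. Like the other gene lists, this list was chosen with earlier results of these data known, so its counts are a description. Of 42 listed genes 35 were measured, and all 35 had differences above 0, against 71.8% of all genes. With quantile normalization over listed probe sets 34 were above 0, against 50.6% of all genes. The median of the 35 was 0.40, against 0.09 for all genes, with a range of 0.11 to 0.91. The criteria were met by 6 genes with higher levels and 0 with lower levels, and none passed adjustment over all probe sets. Without overlap and higher were 8 of the 35, against 12.4% of all genes. Lgals3bp, a secreted glycoprotein gene, averaged 10.62 ± 0.34 in JAM-A-/- tumors, against 9.71 ± 0.23 in JAM-A+/+ tumors (SD, n = 3 each), a difference of 0.91 (SE 0.20, limma adjusted p = 0.256). Dhx58, a regulator of cytosolic RNA sensing, was at 8.10, 8.36 and 7.83 in JAM-A-/- tumors 5333, 5346 and 5347, against 7.56, 7.46 and 7.14 in JAM-A+/+ tumors 5369, 5370 and 5393, without overlap. It differed by 0.71 (SE 0.18, limma adjusted p = 0.293), Irgm1, an immunity-related GTPase, by 0.79 (SE 0.21, 0.313) and Ifi35 by 0.41 (SE 0.13, 0.366).

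With single tumors left out, the median of the interferon-induced list fell most without 5346 and next without 5393. The mean deviation of the list from the 6-tumor mean was 0.04, 0.70 and -0.08 in JAM-A-/- tumors 5333, 5346 and 5347, against 0.04, -0.13 and -0.57 in JAM-A+/+ tumors 5369, 5370 and 5393. Without 5346 the median was 0.14 and 29 of 35 differences were above 0, and without 5393 the median was 0.27. The list and the 3 high p200 probe sets were all highest in tumor 5346. In tumor 5347 the list stood at -0.08, and Ifi204/Ifi211, Ifi203 and Ifi202b stood at 0.46, 0.58 and 0.84. The part of interferon in the p200 differences was not tested. The count of 6 genes was 11 without tumor 5333, 10 without 5347, 4 without 5346 and 3 without 5393.

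Interferons, their receptors and their signalling genes were examined next. Of 18 measured genes, 1 met the criteria with a higher level, the kinase gene Jak1, at 10.86, 10.85 and 11.32 for JAM-A-/- and 9.91, 10.64 and 10.76 for JAM-A+/+ (0.57, SE 0.24, limma adjusted p = 0.455). The median over the list was 0.10. This count was 0 without tumor 5346, 5347 or 5369 and 3 without 5333.

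Of the 12 partners and products of the AIM2 inflammasome, 1 met the criteria. Casp1, the caspase activated there, was at 9.30, 10.11 and 10.01 in JAM-A-/- tumors 5333, 5346 and 5347, against 9.49, 8.87 and 9.28 in JAM-A+/+ tumors 5369, 5370 and 5393. Tumor 5333 was below 5369, so the groups overlapped, and the difference was 0.59 (SE 0.25, limma adjusted p = 0.45). The median of the 12 was 0.16, and the count was 0 without 5347, 5370 or 5393 and 2 without 5333 or 5346.

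Other cytosolic DNA sensing genes, including the sensor and adaptor genes of the STING pathway, gave 0 of 13 that met the criteria and a median of 0.20. The smallest unadjusted p-values were those of Xrcc6, a subunit of the Ku DNA end-binding complex (0.31, limma adjusted p = 0.445), and Ikbke, a kinase upstream of interferon induction (0.35, 0.456). The count was 1 without tumor 5346, 5347, 5370 or 5393.

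Blood cell markers were measured because p200 genes are used mainly by leukocytes, and in whole tumors more cells of a type and more RNA per cell cannot be told apart. Markers shared by leukocytes had 2 of 9 genes meeting the criteria with higher levels, Vav1 (0.49, SE 0.15, limma adjusted p = 0.366) and Ptpn6 (0.38, SE 0.15, 0.432), and a median of 0.15. Their mean log2 level was 7.81 to 8.24 in JAM-A-/- tumors and 7.62 to 8.13 in JAM-A+/+ tumors. Macrophage markers had 0 of 13 and a median of 0.13, with mean levels of 8.30 to 8.83 in JAM-A-/- tumors and 8.09 to 8.80 in JAM-A+/+ tumors. The leukocyte count was 0 without tumor 5369 or with array weights, and 1 without 5346, without 5347 or with quantile normalization of either kind. The leukocyte median was -0.02 without 5369, 0.01 without 5347 and 0.28 without 5333, and 0.04 with quantile normalization over listed probe sets. The macrophage median was -0.07 without 5369, 0.03 without 5347, 0.31 without 5333 and 0.30 without 5370, and -0.01 with quantile normalization over listed probe sets, so neither list had a stable direction. The macrophage count was 1 without 5369.

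The order of tumors in macrophage markers was set beside that in the 3 high p200 probe sets. Macrophage markers deviated by -0.23, 0.10 and 0.30 in JAM-A-/- tumors 5333, 5346 and 5347, against -0.44, 0.27 and 0.01 in JAM-A+/+ tumors 5369, 5370 and 5393. Tumor 5370 was thus above 5333 and 5346 in macrophage markers. Ifi204/Ifi211 and Ifi203 were lower in 5370 than in any JAM-A-/- tumor, whereas Ifi202b, like the markers, was higher in 5370 than in 5333. The part of blood cells in the p200 differences was not tested.

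Among the other marker lists, dendritic cells had 0 of 10 and a median of 0.02, T cells 0 of 9 and 0.02, B cells 0 of 6 and 0.11, and granulocytes 0 of 8 and 0.10. NK cell markers had 1 of 8, the receptor gene Klrd1, lower in JAM-A-/- tumors (-0.56, SE 0.19, limma adjusted p = 0.393), with a median of -0.08. This count was 0 without tumor 5346 or 5393, and that of dendritic cells was 1 without 5333. Mean levels of NK markers (4.51 to 4.67 in JAM-A-/- and 4.58 to 4.74 in JAM-A+/+ tumors) and of B cell markers (4.67 to 4.74 in JAM-A-/- and 4.56 to 4.68 in JAM-A+/+ tumors) were near or below the lower quartile of the arrays. Tumor epithelium markers were bright in every tumor, at 11.11 to 11.67 in JAM-A-/- and 11.07 to 11.41 in JAM-A+/+ tumors, with 0 of 8 meeting the criteria (2 without tumor 5333, 1 without 5347 or 5370) and a median of 0.16. The luminal keratin genes Krt18 and Krt19 differed by 0.34 (SE 0.20, limma adjusted p = 0.566) and 0.41 (SE 0.27, 0.587).

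**Figure D3:**
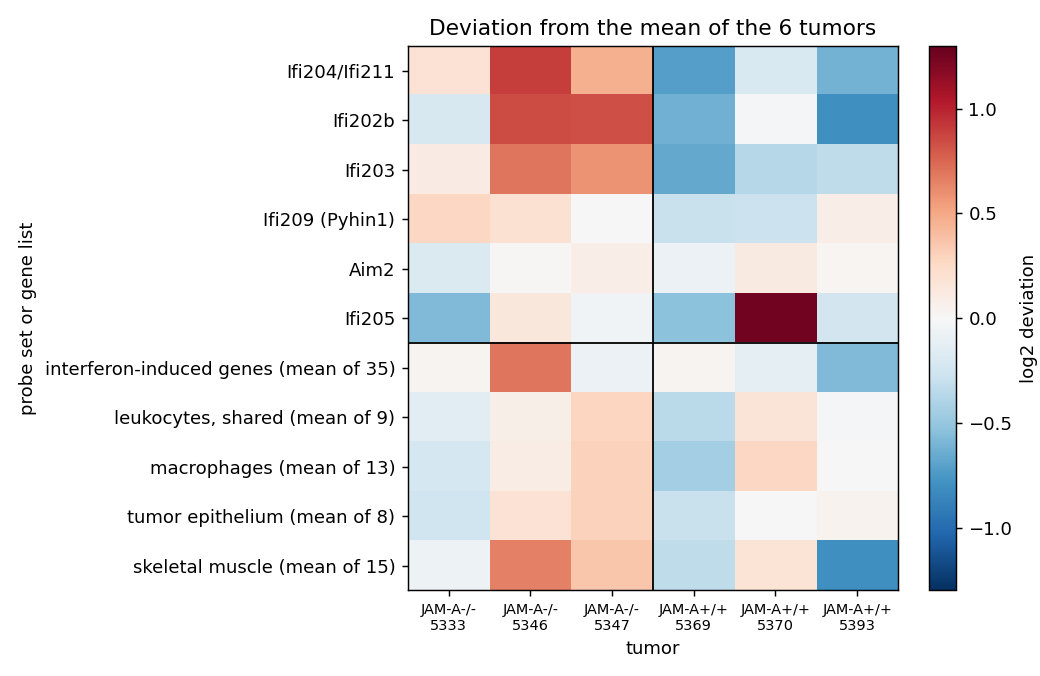
Deviation of log2 expression from the mean of the 6 tumors (colour) for the 6 member probe sets and for the means of 5 gene lists (rows) in 3 JAM-A-/- tumors and 3 JAM-A+/+ tumors (columns). Ifi204/Ifi211, Ifi202b and Ifi203 are highest in tumors 5346 and 5347, the interferon-induced list is high in 5346 (0.70) but not in 5347 (-0.08), and Ifi205 is high in 5370 (1.25).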

How the data were processed

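The authors deposited log2 values with 2 decimals, from RMA in Affymetrix Expression Console 1.1 according to the submitters' processing notes. RMA scales the probe intensities of all arrays to 1 distribution, so total RNA is not measured. The deposited probe set values still differed in distribution between arrays. Array medians were 6.23 to 6.34, and arrays correlated at 0.986 to 0.991 within and 0.979 to 0.989 between genotypes. An exact permutation test of 3 against 3 tumors cannot go below p = 0.1.

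Differences, SE and p-values came from limma 3.58.1 in R 4.3.3 on all 35557 probe sets without covariates, with Benjamini-Hochberg adjustment, after a test on simulated data. The platform annotation pairs 21789 probe sets with 1 symbol and 1621 with several, and does not list 12147. Each gene was taken as its brightest single-symbol probe set, named through gene identifiers (21698 matched).

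Members and gene lists were chosen with earlier results of these data known. Genes picked for naming were F11r, the p200 genes and genes meeting the criteria between F11r and the cluster. From every list but skeletal muscle, the 4 of smallest p among genes meeting the criteria were picked (or, with none, the 2 of smallest p). The 3 nearest profiles of members with a range of at least 1.0 were picked as well. Some of the list genes picked are not printed. Alternatives were quantile normalization over all or listed probe sets, median centring, array weights, an intensity trend with a robust prior, a fold of 1.5, leaving out the 40% dimmest probe sets and leaving out each tumor.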

Additional observations from a re-analysis of the deposited data

How the results depend on the processing

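The F11r difference ranged between -4.54 and -4.05 when single tumors were left out, and its limma adjusted p lay at 0.0507 without tumor 5333, 0.0839 without 5369, 0.0794 without 5370 and 0.0576 without 5393. The member median of 0.32, the value of Ifi209, was 0.62 when the shared probe set was included, 0.25 to 0.44 with single tumors left out, and 0.26, 0.21 and 0.37 with quantile normalization between arrays, over listed probe sets and with median centring. Probe sets meeting the criteria numbered 2952, against 817 with quantile normalization over listed probe sets, 1274 at a fold of 1.5 and 2040 to 5016 with single tumors left out, the highest without 5333. Interferon-induced genes meeting the criteria numbered 6, against 24 with array weights and 3 to 11 with single tumors left out. Genes between F11r and the cluster numbered 3, against 2 with quantile normalization over listed probe sets and 4 with that between arrays. They numbered 5 with median centring, 10 with array weights and 3 to 8 with single tumors left out. Of the genes meeting the criteria, 88.9% were higher in JAM-A-/- tumors, against 76.6% with quantile normalization between arrays, 54.2% with quantile normalization over listed probe sets and 96.1% with median centring, where the median over all genes was 0.07, 0.00 and 0.15. Under these 3 scalings Ifi204/Ifi211 differed by 1.07, 0.97 and 1.08, Ifi202b by 1.02, 0.92 and 1.03, and Ifi203 by 0.95, 0.86 and 0.97, while Aim2 was at 0.03, -0.07 and 0.01 and Ifi205 at -0.30, -0.39 and -0.26. Causes of these shifts were not tested. Dim probe sets such as Ifi209 limit what a small difference shows. No paired analysis was possible because the sources used here name no litter or other pairing for the 6 tumors.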
